A study of Saccharomyces cerevisiae with 13 samples.

Results

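The 10 genes described here are the mating pheromone and mating-type specific genes of Saccharomyces cerevisiae that were listed by symbol, out of 5446 protein-coding genes measured. They comprise 3 genes that are specific to α cells (MF(ALPHA)1, MF(ALPHA)2 and STE3) and 7 that are specific to a cells (MFA1, MFA2, STE2, STE6, BAR1, ASG7 and AGA2). The list was drawn up with the signals of these genes on these arrays known, so their values are given as a description and no difference between groups is tested on them. Each of the 10 genes was measured by 1 probe set.

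Budding yeast has a pair of haploid mating types, and each secretes a peptide pheromone that is sensed by a receptor on cells of the opposite type. The mating-type locus of α cells encodes α1, which turns on the α-specific genes together with Mcm1, and α2, which turns off the a-specific genes. Pheromone binding activates a G protein and starts a kinase cascade that arrests the cell cycle and induces the genes of cell fusion.

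The study asked how the transcriptome responds when a single tRNA gene is lost. RNA was taken from haploid cells in mid-logarithmic growth in rich medium at 30°C and hybridised to Affymetrix yeast 2.0 arrays, 1 sample to an array, giving 3 wild-type arrays and 2 for every one of the 5 deletion strains. ΔtM(CAU), ΔtR(CCU)J and ΔtL(GAG)G form the SC group (6 arrays), which the study made up of single-copy tRNA families and the initiator tRNA. ΔtR(UCU)M2 and ΔtH(GUG)G1 form the MC group (4 arrays), in which the family has further copies. By the study the initiator tRNA has further copies too, so the groups do not divide by copy number alone. The labels of the ΔtM(CAU) arrays do not say which gene of that anticodon was removed, and it is taken here as the initiator from the study's own grouping. All strains, wild type included, are labelled with the background Y5565. Per the methods of the study this is a MATα strain that lacks LYP1, URA3 and LEU2 (lyp1Δ, ura3Δ0, leu2Δ0), with HIS3 in place of CAN1 (can1Δ::MFA1pr-HIS3) and LEU2 in place of MFα1 (mfα1Δ::MFα1pr-LEU2), and in the deletion strains the tRNA gene was replaced by a hygromycin resistance cassette. The methods add that the wild type of all analyses holds the same resistance marker, inserted near the tRNA gene tL(CAA)L3, so both sides of each comparison carry it. The MF(ALPHA)1 coding sequence is therefore absent from the stated genotype of all 13 samples, and LEU2 is placed under its promoter. The arrays are labelled as biological replicates, and the methods mention several colonies per strain for the growth assays but do not say how many were used for the arrays.

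Values below are log2 of the deposited signal. The array background was taken as the 95th percentile of the 1746 Schizosaccharomyces pombe probe sets on the same array and lay between 3.69 and 4.43. The median gene signal of an array was 512 to 536 for wild type, 539 to 626 for SC and 491 to 552 for MC, and 94.8% of the genes were above background on all 13 arrays. Probe sets differ in how brightly they report the same number of molecules, so each gene was compared between arrays and with the array background, and not with another gene. Each array was put with the wild-type array of highest r over 3992 bright genes, a rule that gives at most 3 sets. Wild type 1 was nearest to the first replicates of the SC strains, wild type 2 to the first replicates of the MC strains, and wild type 3 to every second replicate (r of 0.948 to 0.992). The next nearest wild-type array had r of 0.923 to 0.978, and the margin was small for some arrays, such as the first of ΔtR(CCU)J (0.948 against 0.943). The study compared each strain with wild type of its own batch, but the sources used here do not name the batches, so differences from the nearest wild-type array are given for the 10 genes beside the group values.

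The methods state a MATα strain, and the marker signals are set beside that as a description only. MF(ALPHA)2 and STE3, and the further α-specific genes SAG1 and AFB1, were far above background on every array, whereas the 7 a-specific genes ranged from below background to 9.93 times it. HMRA1, the a1 gene of the silent cassette, was above background on 0 of 13 arrays. The stated genotype and the data parted at MF(ALPHA)1, which was bright on the 6 SC arrays although that genotype lacks it.

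**Figure D1:**
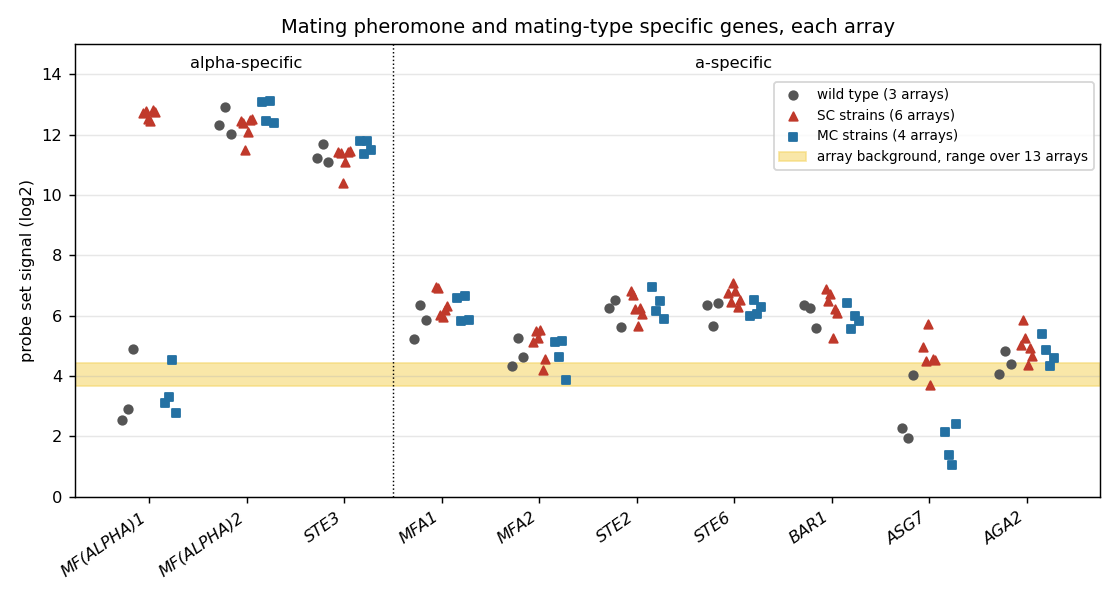
Signal of the 10 genes on each array, as log2 of the deposited probe set signal, with the 3 α-specific genes on the left and the 7 a-specific genes on the right. Each point is 1 array of wild type, an SC strain or an MC strain, and the band is the range of the array background (3.69 to 4.43). MF(ALPHA)1 lies at 12.44 to 12.80 on the 6 SC arrays and at 2.54 to 4.89 on the other 7.

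MF(ALPHA)1 encodes the major precursor of α-factor, the pheromone that α cells secrete. On the wild-type arrays its signal was 2.54, 2.92 and 4.89. It was 12.72 and 12.77 in ΔtM(CAU), 12.53 and 12.44 in ΔtR(CCU)J, and 12.80 and 12.73 in ΔtL(GAG)G. In the MC strains it was 3.10 and 3.30 in ΔtR(UCU)M2 and 4.53 and 2.79 in ΔtH(GUG)G1. The 6 SC arrays lay close together and the other 7 spread from 2.54 to 4.89, with no array between 4.89 and 12.44. On the SC arrays the signal was 410 to 534 times the array background, and on the others 0.36 to 1.98 times, where wild type 3 and the first ΔtH(GUG)G1 array were the only arrays of the 7 above background.

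The SC arrays averaged 12.67 ± 0.15 (SD, n = 6), the MC arrays 3.43 ± 0.76 (SD, n = 4) and wild type 3.45 ± 1.26 (SD, n = 3). With signals below background raised to the array background, MF(ALPHA)1 was at least 322-fold higher than in wild type in ΔtM(CAU), at least 268-fold in ΔtR(CCU)J and at least 326-fold in ΔtL(GAG)G, and at least 393-fold higher in the SC than in the MC group. No fold is given for the MC strains against wild type, since both were near background. With the same floor, the SC excess over MC was at least 328-fold in the first replicates and at least 471-fold in the second replicates taken alone. Against the nearest wild-type array, the measured signal of all 6 SC arrays was higher. The pair of ΔtR(CCU)J arrays was the dimmest of the SC group, below the arrays of the other SC strains.

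Of the 10 genes, MF(ALPHA)1 was the only one whose SC arrays all lay above the other 7 arrays, which held for 1.25% of all genes measured, and 0 genes of the list lay wholly below them (0.588% of all genes). Nothing is read from these counts, because the list was chosen on the same arrays. The genes next to MF(ALPHA)1 on its chromosome did not share the step. POS5, an NADH kinase and the neighbour on one side, spanned 8.34 to 8.93 over all arrays, and UIP4, the measured neighbour on the other side, spanned 5.07 to 6.18, with SC and other arrays overlapping for both.

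The genes named in the genotype of the Y5565 background were read on the same arrays, beside LYS2 and MET17, which it does not name. CAN1 (an arginine permease), LYP1 (a lysine permease) and URA3 (a uracil synthesis enzyme), all deleted in that background, were above background on 0 of 13 arrays. LEU2, a leucine synthesis enzyme, was bright throughout at 12.99, 13.30 and 13.06 on the wild-type arrays, 12.75 and 12.71 in ΔtM(CAU), 12.12 and 12.49 in ΔtR(CCU)J, 12.86 and 12.86 in ΔtL(GAG)G, 13.37 and 13.18 in ΔtR(UCU)M2, and 13.33 and 12.96 in ΔtH(GUG)G1. All 6 SC arrays were below the other 7 for LEU2.

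The LEU2 difference between SC and MC was -0.58 (SE 0.11, limma, adjusted p = 0.0512 over all genes), which did not pass the threshold, and LEU2 fell by 0.81 in ΔtR(CCU)J against wild type (SE 0.16, limma, adjusted p = 0.0252). Against the nearest wild-type array, 0 of 6 SC arrays were higher (-0.87 to -0.13) and the 4 MC arrays spanned -0.10 to 0.12. HIS3, a histidine synthesis enzyme, is placed by the genotype under the MFA1 promoter. No deletion of HIS3 at its own locus is listed, so its signal cannot be taken as a measure of that promoter. HIS3 was at 11.37 to 11.68 on the SC arrays, 11.48 to 12.22 on the MC arrays and 11.74 to 12.10 on wild type. LYS2, a lysine synthesis enzyme, was at 10.39 to 11.27, 11.19 to 11.53 and 11.27 to 11.50 in the same order, and fell by 0.92 in ΔtR(CCU)J (SE 0.17, limma, adjusted p = 0.0202). MET17, a methionine synthesis enzyme that the stated genotype does not list as deleted, was above background on 3 of 13 arrays. Its signal was 0.10 to 1.31 times the array background over all strains, wild type included. Over 23 alternatives the ΔtR(CCU)J call of LEU2 passed in 20 and that of LYS2 in 21 (highest adjusted p from limma 0.149 and 0.126). Among the losses, both calls were lost without the first ΔtR(CCU)J array, and that of LEU2 also without wild type 2.

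For the 3 SC strains, a difference in strain background from wild type cannot be told apart from the loss of the tRNA gene, because MF(ALPHA)1 separates every SC array from every wild-type array. This holds for each SC difference given here, those of MF(ALPHA)1, LEU2 and LYS2 above as well as those below.

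**Figure D2:**
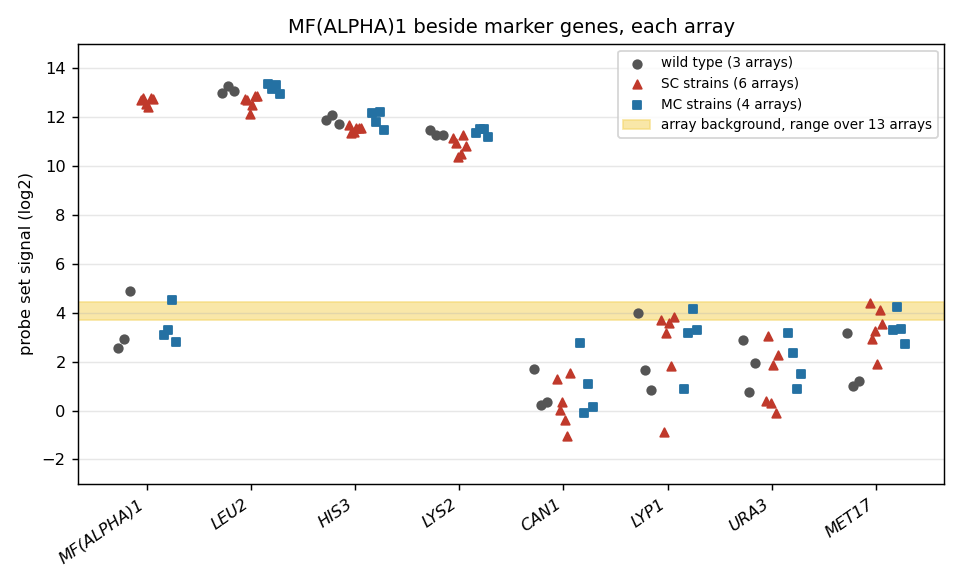
Signal of MF(ALPHA)1, of genes named in the Y5565 genotype and of LYS2 and MET17 on each array, as log2 of the deposited probe set signal. Symbols show wild type, SC and MC arrays, and the band is the array background. CAN1, LYP1 and URA3 stay at or below background on all 13 arrays, and LEU2 is at 12.12 to 12.86 on the SC arrays and at 12.96 to 13.37 on the other 7.

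MF(ALPHA)2 encodes the minor α-factor precursor and is intact in the stated genotype. Its signal was 12.32, 12.92 and 12.03 on the wild-type arrays, 12.44 and 12.39 in ΔtM(CAU), 11.48 and 12.08 in ΔtR(CCU)J, 12.48 and 12.50 in ΔtL(GAG)G, 13.09 and 12.44 in ΔtR(UCU)M2, and 13.10 and 12.39 in ΔtH(GUG)G1. It was 210 to 499 times the array background everywhere, and on the 7 arrays where MF(ALPHA)1 was near background it was at 12.03 to 13.10. The SC and MC arrays overlapped, with the first replicates of the MC strains highest and the first ΔtR(CCU)J array lowest.

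STE3, the receptor by which α cells sense a-factor, followed the same order. It was at 11.21, 11.69 and 11.10 on the wild-type arrays, 11.41 and 11.40 in ΔtM(CAU), 10.38 and 11.09 in ΔtR(CCU)J, 11.43 and 11.46 in ΔtL(GAG)G, 11.79 and 11.34 in ΔtR(UCU)M2, and 11.80 and 11.47 in ΔtH(GUG)G1. These signals were 97.8 to 221 times the array background. Both ΔtR(CCU)J arrays were below all wild-type arrays, the second only just, and the SC and MC groups overlapped.

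Strain means of MF(ALPHA)2 differed from wild type by -0.64 in ΔtR(CCU)J and by 0.34 in ΔtR(UCU)M2, the extremes of the 5 strains (SE 0.31). Those of STE3 differed by -0.60 in ΔtR(CCU)J and by 0.30 in ΔtH(GUG)G1 (SE 0.24). The SC group was below the MC group by 0.52 for MF(ALPHA)2 (-0.52, SE 0.22) and by 0.41 for STE3 (-0.41, SE 0.17). Most of this gap lay in the first replicates, where SC minus MC was -0.96 for MF(ALPHA)2 and -0.72 for STE3, against -0.09 for each in the second replicates. The first SC replicates were nearest to wild type 1 and the first MC replicates to wild type 2. These wild-type arrays differed in the same direction, at 12.32 and 12.92 for MF(ALPHA)2 and 11.21 and 11.69 for STE3. Whether array set or strain gave the gap was not tested. Against the nearest wild-type array, the 4 MC arrays were higher by 0.17 to 0.40 for MF(ALPHA)2, and the SC arrays spanned -0.83 to 0.47, with 5 of 6 above 0. For STE3 the MC arrays were higher by 0.10 to 0.37 and the SC arrays spanned -0.83 to 0.35, with 4 of 6 above 0.

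MF(ALPHA)2 and STE3 moved together from array to array, with r = 0.97 and rho = 0.91 over the 13 arrays, and r = 0.96 without the first ΔtH(GUG)G1 and the first ΔtR(CCU)J array. SAG1, the α-agglutinin by which α cells adhere to a cells, tracked both (r = 0.91 with MF(ALPHA)2 and 0.93 with STE3). These correlations describe 13 arrays that share strains and replicate numbers, so the arrays are not independent and no p is given. SAG1 was at 11.58, 12.09 and 10.91 on the wild-type arrays, 11.72 and 11.72 in ΔtM(CAU), 10.16 and 10.64 in ΔtR(CCU)J, 12.13 and 11.74 in ΔtL(GAG)G, 12.28 and 11.54 in ΔtR(UCU)M2, and 12.15 and 11.76 in ΔtH(GUG)G1. The ΔtR(CCU)J arrays were again the lowest of all, and the difference from wild type of -1.12 (SE 0.34, limma, adjusted p = 0.0665) did not pass the threshold. AFB1, which encodes an a-factor barrier protein of α cells, was at 11.55 to 12.36 and had r of 0.59 to 0.73 with the other 3 over all 13 arrays. With the 2 arrays farthest out left out it was 0.79 to 0.86, and that of SAG1 with MF(ALPHA)2 and STE3 was 0.85 and 0.89.

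**Figure D3:**
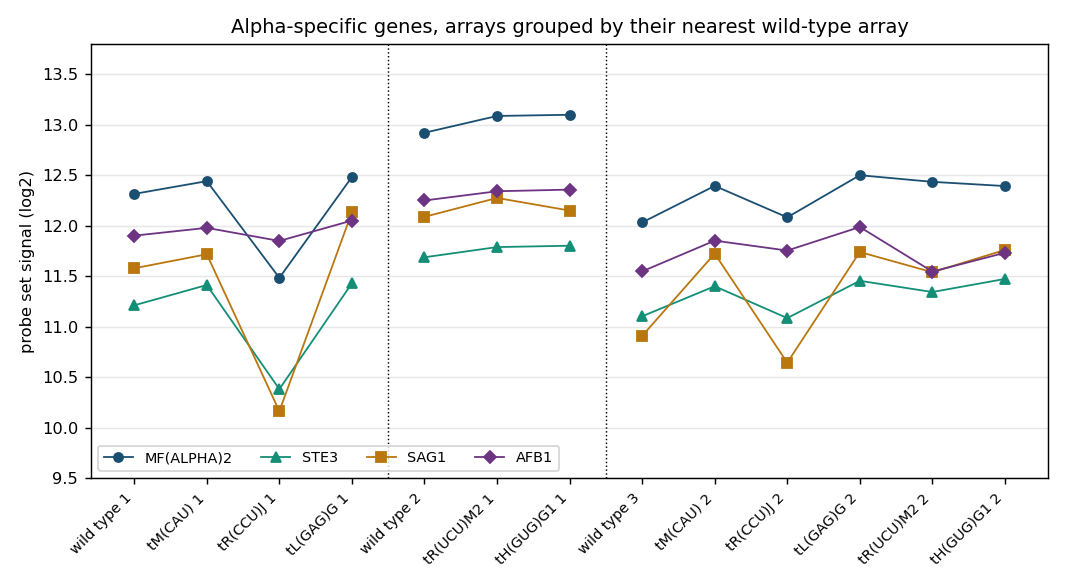
Signal of MF(ALPHA)2, STE3, SAG1 and AFB1 on each array, as log2 of the deposited probe set signal on a y axis that does not start at 0, with the arrays in 3 sets by their nearest wild-type array, which opens each set. MF(ALPHA)2, STE3 and SAG1 are high together on wild type 2 and the first MC replicates, and low together on the first ΔtR(CCU)J array (11.48, 10.38 and 10.16).

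The a-specific genes are turned off in α cells, and their signals were at most 9.93 times the array background in all strains. Their summed signal on the linear scale was 304 to 370 in wild type, 342 to 564 in the SC and 298 to 451 in the MC group. MFA1, 1 of the 2 genes for the a-factor precursor, was at 5.22, 6.37 and 5.85 on the wild-type arrays, 6.96 and 6.93 in ΔtM(CAU), 6.04 and 5.97 in ΔtR(CCU)J, 6.18 and 6.32 in ΔtL(GAG)G, 6.58 and 5.82 in ΔtR(UCU)M2, and 6.64 and 5.86 in ΔtH(GUG)G1. It was 2.32 to 9.35 times the array background, and the ΔtM(CAU) arrays were the highest of the 13. All 6 SC arrays were above their nearest wild-type array (0.12 to 1.75), and the MC arrays spanned -0.03 to 0.27.

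MFA2, the other a-factor gene, was at 4.33, 5.25 and 4.64 on the wild-type arrays, 5.13 and 5.48 in ΔtM(CAU), 5.27 and 5.52 in ΔtR(CCU)J, 4.22 and 4.56 in ΔtL(GAG)G, 5.13 and 4.62 in ΔtR(UCU)M2, and 5.18 and 3.87 in ΔtH(GUG)G1. These signals were 1.13 to 3.46 times the array background. The ΔtR(CCU)J arrays were above all wild-type arrays, the first only just, and the ΔtL(GAG)G arrays were among the lowest, so the SC strains did not move as one. Against the nearest wild-type array 4 of 6 SC arrays were higher (-0.11 to 0.95), and 0 of 4 MC arrays were (-0.77 to -0.01).

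STE2, the receptor by which a cells sense α-factor, was at 6.24, 6.51 and 5.64 on the wild-type arrays, 6.82 and 6.67 in ΔtM(CAU), 6.23 and 5.65 in ΔtR(CCU)J, 6.25 and 6.06 in ΔtL(GAG)G, 6.96 and 6.16 in ΔtR(UCU)M2, and 6.49 and 5.91 in ΔtH(GUG)G1. It was 3.32 to 7.81 times the array background, with ΔtM(CAU) above wild type and the SC and MC groups overlapping. Against the nearest wild-type array the SC arrays spanned -0.02 to 1.04 and the MC arrays -0.02 to 0.52. STE6, the transporter that exports a-factor, was at 6.36, 5.65 and 6.42 on the wild-type arrays, 6.77 and 6.47 in ΔtM(CAU), 7.08 and 6.80 in ΔtR(CCU)J, 6.29 and 6.54 in ΔtL(GAG)G, 5.99 and 6.53 in ΔtR(UCU)M2, and 6.07 and 6.30 in ΔtH(GUG)G1. It was 2.44 to 9.93 times the array background, and ΔtR(CCU)J and ΔtM(CAU) were both wholly above wild type. Its differences from the nearest wild-type array were -0.07 to 0.73 for SC and -0.12 to 0.42 for MC.

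BAR1, the secreted protease that degrades α-factor, was at 6.35, 6.25 and 5.60 on the wild-type arrays, 6.89 and 6.50 in ΔtM(CAU), 6.73 and 5.26 in ΔtR(CCU)J, 6.21 and 6.08 in ΔtL(GAG)G, 6.42 and 5.57 in ΔtR(UCU)M2, and 5.99 and 5.83 in ΔtH(GUG)G1. The ΔtR(CCU)J replicates lay far apart, the second being the lowest of the 13 arrays, and BAR1 was 2.88 to 7.77 times the array background. Its differences from the nearest wild-type array were -0.34 to 0.90 for SC and -0.26 to 0.23 for MC. AGA2, the binding subunit of the a-agglutinin, was at 4.06, 4.82 and 4.40 on the wild-type arrays, 5.02 and 5.85 in ΔtM(CAU), 5.27 and 4.37 in ΔtR(CCU)J, 4.94 and 4.68 in ΔtL(GAG)G, 5.41 and 4.87 in ΔtR(UCU)M2, and 4.33 and 4.58 in ΔtH(GUG)G1. It was above background on 12 of 13 arrays, and ΔtM(CAU) and ΔtR(UCU)M2 were wholly above wild type. Against the nearest wild-type array 5 of 6 SC arrays were higher (-0.03 to 1.45), as were 3 of 4 MC arrays (-0.50 to 0.59).

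ASG7, whose product acts on pheromone signalling in a cells and in new zygotes, was at 2.28, 1.95 and 4.05 on the wild-type arrays, 4.97 and 4.51 in ΔtM(CAU), 5.72 and 3.69 in ΔtR(CCU)J, 4.57 and 4.52 in ΔtL(GAG)G, 2.14 and 1.40 in ΔtR(UCU)M2, and 1.04 and 2.41 in ΔtH(GUG)G1. The lowest SC array was above the highest MC array, while the second ΔtR(CCU)J array was below wild type 3. ASG7 was above background on 6 of 13 arrays, namely 5 SC arrays and wild type 3, and at most 3.85 times background.

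The measured SC excess of ASG7 over MC was 2.92 on the log2 scale (SE 0.51). With signals below background raised to it, the SC group was 1.57-fold higher (0.65 on the log2 scale), so most of the measured gap lay between values under the background. The measured signals of 5 of 6 SC arrays were above the nearest wild-type array (-0.36 to 3.43) and the MC arrays spanned -2.65 to 0.19, with 2 of these 3 wild-type arrays and all 4 MC arrays under background. The measured neighbours of ASG7 did not share the step, with SET2, a histone methyltransferase, at 8.49 to 8.95 and the carboxypeptidase CPS1 at 10.17 to 10.92 over all arrays.

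Set against wild type, 7 of the 10 genes had both ΔtM(CAU) arrays above all 3 wild-type arrays (13.6% of all genes did): MF(ALPHA)1 and every a-specific gene but MFA2. In ΔtR(CCU)J this held for 3 (31.6% of all genes), MF(ALPHA)1, MFA2 and STE6, and STE3 alone was wholly below wild type (12.5%). In ΔtL(GAG)G it held for 2 (15.7%), MF(ALPHA)1 and ASG7, in ΔtR(UCU)M2 for 1 (4.13%), AGA2, and in ΔtH(GUG)G1 for 0 (5.14%). In the strains other than ΔtR(CCU)J, 0 of the 10 lay wholly below wild type, where the share of all genes that did so was 6.04% for ΔtM(CAU), 10.8% for ΔtL(GAG)G, 5.93% for ΔtR(UCU)M2 and 4.46% for ΔtH(GUG)G1. Between the groups, 2 genes, MF(ALPHA)1 and ASG7, had all SC arrays above all MC arrays (5.47% of all genes), and 0 had all below (2.15%). These shares are set beside the counts for scale only, since the same arrays chose the genes.

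The median difference of the a-specific genes from wild type on the log2 scale was 0.63 for ΔtM(CAU), 0.40 for ΔtR(CCU)J, 0.27 for ΔtL(GAG)G, 0.14 for ΔtR(UCU)M2 and 0.03 for ΔtH(GUG)G1, and over all genes it was 0.07, 0.17, 0.05, -0.03 and -0.01. All 7 had a positive difference in ΔtM(CAU), with 1.14 for MFA1, 1.01 for AGA2, 0.63 for BAR1, 0.62 for STE2, 0.57 for MFA2 and 0.47 for STE6 (SE of 0.25 to 0.41). The difference of ASG7, measured at 1.98 against wild-type signals of which 2 of 3 were under background, was at least 0.60 with those raised to it, and the median of the 7 was then 0.62. These 5 comparisons share the 3 wild-type arrays. Between the groups, SC minus MC had a median of 0.33 for the a-specific genes and 0.11 for all genes, and it was 0.43 for STE6, 0.33 for MFA2 and BAR1, 0.22 for AGA2, 0.18 for MFA1 and -0.10 for STE2. The SC and MC arrays of these 6 genes overlapped. The sign of MFA1 was negative in the first replicates (-0.21) and under quantile normalization (-0.04), that of MFA2 was negative in the first replicates (-0.28), and that of STE2 was positive in the second (0.10).

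**Figure D4:**
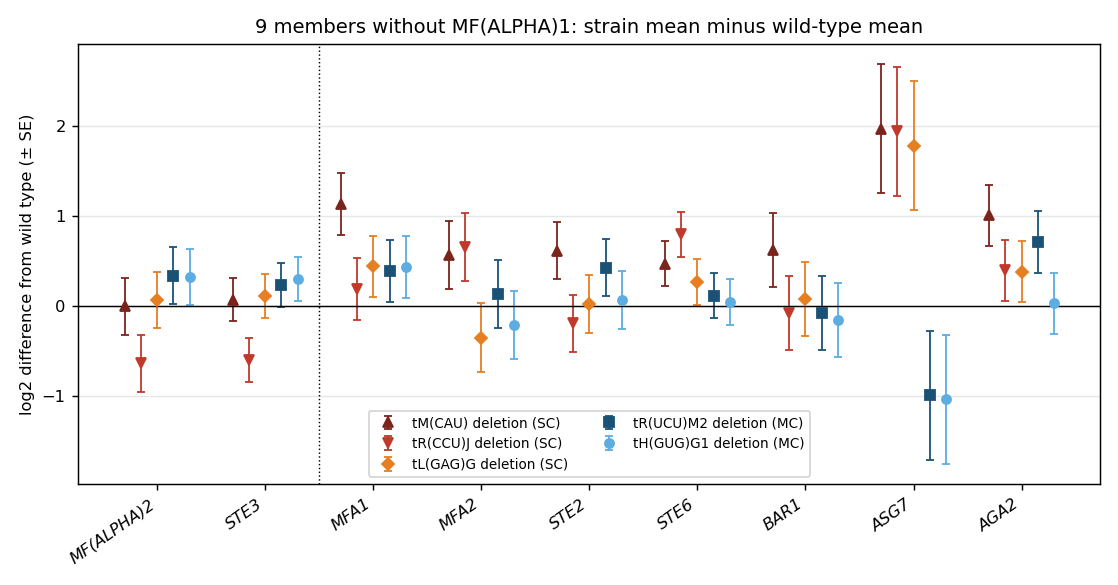
Strain mean minus wild-type mean on the log2 scale for the 9 genes other than MF(ALPHA)1, with 1 symbol for each deletion strain and bars of 1 standard error from the fit over all 13 arrays. MF(ALPHA)2 and STE3 are lowest in ΔtR(CCU)J (-0.64 and -0.60), and all 7 a-specific genes are above 0 in ΔtM(CAU). ASG7 is at 1.78 to 1.98 in the SC strains and at -1.04 to -0.99 in the MC strains. These ASG7 values are not exact, because 2 of 3 wild-type arrays, all 4 MC arrays and the second ΔtR(CCU)J array were under background. With signals raised to background the SC strains are higher by 0.41 to 0.60.

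The a-specific genes followed each other less closely than MF(ALPHA)2 and STE3 did. Over the 13 arrays their pairwise r ran from -0.33 (STE2 and STE6) to 0.77 (STE2 and BAR1), and most of these signals were within a few fold of background. Whether strain or array background moved them was not tested.

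The other genes of the mating pathway were taken from lists of haploid-specific genes, pheromone signalling, pheromone-induced genes, pheromone processing, the mating-type loci and the silencing of the silent cassettes, 67 genes in all. These genes were no members of the list above and were tested with limma over all genes. In ΔtR(CCU)J 4 of the 67 passed, 2 higher and 2 lower, where 8.56% of all genes passed (6.63% higher and 1.93% lower). With the replicate number as a block the count was 7, and without the first ΔtR(CCU)J array it was 0. AXL1, a protease that matures a-factor, rose by 0.57 (SE 0.10, limma, adjusted p = 0.0175), and STE13, a peptidase that matures α-factor, rose by 0.68 (SE 0.14, limma, adjusted p = 0.0252). PRM6, a membrane protein gene induced by pheromone, fell by 1.26 (SE 0.25, limma, adjusted p = 0.0233), and STE4, the β subunit of the pheromone G protein, fell by 0.53 (SE 0.14, limma, adjusted p = 0.0431). The calls of AXL1 and STE13 were lost when the arrays were centred on their medians or quantile normalized. Over 23 alternatives AXL1 passed in 19, STE13 in 18, PRM6 in 20 and STE4 in 12, with the highest adjusted p from limma at 0.156, 0.149, 0.139 and 0.203. STE13 also lost its call without wild type 3, PRM6 without either ΔtR(CCU)J array, and STE4 without any single array other than wild type 3 or those of ΔtH(GUG)G1.

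In the other 4 strains and between SC and MC, 0 of the 67 genes passed in the limma fit, where 0.0367% of all genes passed in ΔtM(CAU), 0.0551% in ΔtL(GAG)G (0.0367% higher and 0.0184% lower), 0% in the MC strains and 0.22% between the groups (0.165% higher and 0.0551% lower). At an unadjusted p below 0.05 there were 6 in ΔtM(CAU), 12 in ΔtL(GAG)G, 4 in ΔtR(UCU)M2, 6 in ΔtH(GUG)G1, 15 between the groups, and 19 in ΔtR(CCU)J. Over all genes the shares at that threshold were 2.17% for ΔtM(CAU), 7.93% for ΔtL(GAG)G, 1.32% for ΔtR(UCU)M2, 1.74% for ΔtH(GUG)G1, 29.7% between the groups and 31.7% for ΔtR(CCU)J.

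The 19 pheromone-induced genes, which respond when a cell senses the opposite type, had a positive difference from wild type for 18 in ΔtM(CAU) (median 0.42), 9 in ΔtR(CCU)J (median -0.12), 14 in ΔtL(GAG)G (median 0.16), 16 in ΔtR(UCU)M2 (median 0.20) and 18 in ΔtH(GUG)G1 (median 0.39). Over all genes the difference was positive for 64.3%, 67.1%, 58.0%, 42.7% and 48.3% in that order, and the medians were 0.07, 0.17, 0.05, -0.03 and -0.01. PRM6 in ΔtR(CCU)J was the 1 gene of the list that passed the test in any strain. The 20 signalling genes, which carry the signal from receptor to nucleus, had medians of 0.25, -0.04, 0.19, 0.01 and 0.10 in the same order of strains. Of these 20, STE4 in ΔtR(CCU)J was the 1 call. The 13 haploid-specific genes had medians between -0.10 and 0.14 in the 5 strains, the 7 a-factor processing genes between 0.05 and 0.23, and the 3 α-factor processing genes between -0.09 and 0.22. The 6 genes that silence the silent cassettes, SIR genes among them, had medians between -0.06 and 0.40, with 0 calls. Of the mating-type loci and their cofactors 6 of 9 were measured, with medians between -0.08 and 0.19 and 0 calls. MATALPHA1, MATALPHA2 and HMLALPHA2 were not among the named probe sets, and HMLALPHA1 (10.08 to 10.71) and HMRA2 (10.54 to 11.16) are read by probe sets that copies of the cassettes share, so their copies cannot be told apart.

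**Figure D5:**
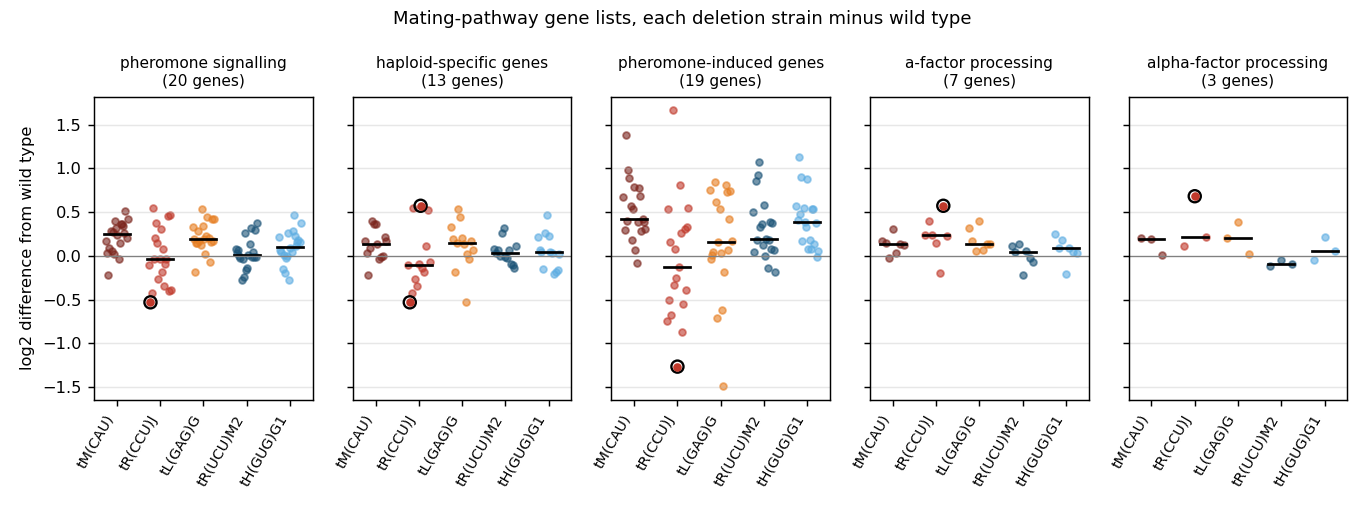
Difference from wild type on the log2 scale of each gene of 5 mating-pathway lists in each deletion strain. Points are genes, bars are the list's median, and ringed points passed the limma test at an adjusted p below 0.05. Rings appear in ΔtR(CCU)J alone, around AXL1, STE13, PRM6 and STE4, some of which stand in more than 1 list.

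Genes whose signal was most like that of MF(ALPHA)1 were ranked by r over the 13 arrays among 1646 genes that ranged over at least 1 on the log2 scale and were above background on at least 7 arrays. Because MF(ALPHA)1 forms 2 separate groups of arrays, r serves only to rank. The most alike were COS8 (r = 0.98), GDH1 (0.92), SIS1 (0.89), YLL066W-B (0.85) and HSP104 (0.82), and the most opposed were ADH5 (-0.88), ARG4 (-0.86), RTC2 (-0.84), TMT1 (-0.83) and ARG7 (-0.80). COS8, a subtelomeric gene of the COS family, which has near-identical copies that its probes could share, was at 8.27 to 9.42 on the SC arrays and at 3.12 to 5.0 on the other 7. It was the gene of these whose separation came nearest to that of MF(ALPHA)1. On those 7 arrays COS8 was 0.60 to 1.64 times the array background, so the size of its gap is not exact. GDH1, a glutamate synthesis enzyme, spanned 11.58 to 12.28 in the SC group against 10.80 to 11.37 elsewhere. ADH5, an alcohol dehydrogenase, spanned 7.96 to 9.01 against 9.38 to 10.76, so the ranges did not meet for either. SIS1, a co-chaperone, and HSP104, a disaggregase, overlapped between SC and the other arrays.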

How the data were processed

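Total RNA was labelled through poly(T)-primed cDNA and hybridised to 1 array per sample. The authors deposited 1 intensity per probe set on a linear scale. Their methods state RMA background adjustment with normalization between arrays, and the submitters' processing notes name GCRMA without a version. The deposited intensities had a trimmed mean of 499.7 to 499.8 on each array, and their scale was otherwise used as found. Of 10928 probe sets, 5495 had a single S. cerevisiae protein-coding gene in the platform annotation, giving 5446 genes (brightest probe set for the 47 genes with several), and 3683 are not listed there. Values were taken as log2. The genes and lists were chosen with earlier results of these data known. Groups came from the labels.

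Genes other than the 10 described were tested with limma 3.58.1 in R 4.3.3 over all 13 arrays with 1 mean per strain, and p-values were adjusted by Benjamini-Hochberg over all genes at a threshold of 0.05. SE are from that fit. For SC minus MC, its SE and p-values measure the spread of arrays within strains, not that between the strains of a group. The fit was tested on simulated data. Named beyond the 10 genes were the genotype markers, SAG1, AFB1, up to 4 called genes per list and the 5 genes most and least like MF(ALPHA)1. Neighbours of MF(ALPHA)1 and ASG7, HMRA1 and the cassette probe sets were added after their values were seen. Replicate numbers of the deletion strains were checked for pairing. Over 3992 genes the deviations of same-numbered arrays correlated at 0.12 to 0.67 in all 10 pairs of strains. Those of wild type with the deletion strains correlated at -0.74 to 0.54. The main fit held no term for replicate number, so its SE and p-values take no account of pairing. Pairing by number entered only through the alternatives with a replicate block and with single replicate numbers. Alternatives were median centring, quantile normalization, an offset of 16, signals raised to background, dim genes left out, a trended robust prior, probe set means, a replicate block, only the arrays compared, single replicate numbers and each array left out. A block for the nearest wild-type array was chosen after seeing the data. The number of arrays limits precision.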

Additional observations from a re-analysis of the deposited data

Results flagged for a closer look

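STE3 on the first ΔtR(CCU)J array was 10.38, far below the other SC arrays, of which the lowest was 11.09. The gap was 0.66 of the range of the 6 SC arrays. It was the only value marked by a screen of 46 sets of values for single arrays that stand apart. Chance marks about 5% of sets in such a screen, so a mark of this kind can arise by chance and is given as a description. Leaving that array out leaves ΔtR(CCU)J with a single array. Without that array the ΔtR(CCU)J calls of the mating-pathway genes were 0.

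The measured ASG7 signal was above the wild-type mean on every SC array, by 0.93 to 2.96 with a mean of 1.90 on the log2 scale, and below it on every MC array, by -1.72 to -0.36. The sizes are not exact, because 2 of 3 wild-type arrays, all 4 MC arrays and the second ΔtR(CCU)J array were under background. With signals raised to background the SC strains were higher than wild type by 0.41 to 0.60. The difference between the groups was not tested.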

How the results depend on the processing

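MF(ALPHA)1 was higher in SC than in MC under every alternative run, at a measured 9.24 and 8.80 to 9.67 with each array left out, and at 7.89 with an offset of 16. The median SC minus MC of the a-specific genes was 0.33 (0.11 to 0.37 with each array left out), and that of MF(ALPHA)2 and STE3 was -0.46 (-0.60 to -0.33 with each array left out), -0.84 within the first replicates and -0.091 within the second. The ΔtR(CCU)J count of mating-pathway calls, 4, was 7 with the replicate block, 14 with the nearest wild-type array as a block, which was chosen after seeing the data, 0 with only the arrays compared, and 0 to 4 with each array left out. It was 0 without the first ΔtR(CCU)J array. The SC minus MC count, 0, was 1 under median centring, with the offset, with signals raised to background and with dim genes left out, 3 under the trended robust prior, and 0 to 3 with each array left out (2 without wild type 2 and 3 without the second ΔtH(GUG)G1 array). It was 0 with the replicate block. The ΔtL(GAG)G count, 0, was 2 with the nearest wild-type array as a block and 0 to 1 with each array left out (1 without either ΔtR(UCU)M2 array). The cause of these moves was not tested. Over all genes, calls in ΔtR(CCU)J went from 466 to between 5 and 1227 and those of SC minus MC from 12 to between 2 and 649. Those in ΔtL(GAG)G went from 3 to between 2 and 15, those in ΔtM(CAU) from 2 to between 2 and 4, and those in each MC strain from 0 to at most 1. The replicate block moved no other count of mating-pathway calls. Signals of MF(ALPHA)1 outside the SC arrays, and of ASG7 in the MC strains, were near or under background, which limits their differences to bounds.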
